A study of Drosophila melanogaster with 9 samples.

Results

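The genes described here are 35 of the 10242 genes measured in the fat body of Drosophila melanogaster, and they were chosen by their deposited expression values for being low in larvae and high to a like degree in both groups of prepupae. In each of them the lowest of 6 prepupa libraries was at least 300 normalised read counts and at least 16 times the highest of 3 larval libraries, and the means of the prepupa groups lay within 2 fold of each other. Symbols that start with Cyp, Gst, Vha, Atg, Hr or Hsp were left out, which removed Atg18b, Atg7 and Hsp70Bb. Because the choice rests on the same measurements, the levels, folds and ratios of the 35 genes are a description and carry no test.

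The series holds 9 poly(A) RNA libraries, 3 per group, each from the pooled fat bodies of 5 animals, the insect organ that does the work of liver and adipose tissue. Eggs were held for 21 h at 21 °C and the animals then grew at 25 °C. All groups carried Lsp2-GAL4, a driver that switches on UAS transgenes in the larval fat body. The larvae were of the third instar with the label genotype UAS-LacZ/+; Lsp2-GAL4/+ (titled e3IL_LacZ), where LacZ is the bacterial control protein. All 6 prepupae (stage label white pupa) have the label genotype UAS-Mitf/+; Lsp2-GAL4/+, although 3 are titled WP_LacZ and 3 WP_mitf, and the data columns carry the opposite names. The groups are called by title here. Mitf was read at 378, 385 and 411 in the larvae, at 347, 370.4 and 407 in the prepupae titled mitf and at 35204, 68535 and 45647 in those titled LacZ. The libraries titled LacZ thus carry the raised Mitf, with a difference from the larvae of 6.93 ± 0.20 (SE) on the log2 scale (limma, Benjamini-Hochberg adjusted p = 1.25e-09, n = 3 per group). For those titled mitf it was −0.06 ± 0.20 (adjusted p = 0.808 by limma). The labels do not say whether replicates came from separate crosses, so p-values measure the spread between these samples, which may be technical.

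Puparium formation is set off by a pulse of the steroid hormone ecdysone. The hormone binds the receptor EcR with its partner usp, which turn on a first tier of regulators, and these turn on or shut down large sets of later genes. In the fat body the change brings an end to the storage and secretion program of the larva, with autophagy, and later the tissue breaks up into single cells that survive into the young adult. Mitf is the fly member of the MITF and TFEB family of transcription factors, known for driving lysosome and autophagy genes.

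The deposited values are normalised read counts, scaled between libraries by the authors, and not corrected for gene length. One sequenced read was worth 0.744 to 1.39 of this unit, so the larval values of several of these genes stand for a few reads or none. Summed over the 35 genes, the normalised read count was 1904 ± 61.8 (SD, n = 3) in the larvae, 157648 ± 1424 in the prepupae titled mitf and 142358 ± 12603 in those titled LacZ. Their share of all counts was 0.00766% ± 0.000678 in the larvae, 0.658% ± 0.0133 in the prepupae titled mitf and 0.803% ± 0.0951 in those titled LacZ. In 26 genes every larval library reached 5 or more, and in these the mean over the 6 prepupa libraries was a median of 52.3 times the larval mean, from 20.8 times in Spec2 to 542 times in CG5618. No fold is given for the other 9, CG31076, bw, Mur89F, NijA, CG32573, Eip78C, Whamy, HisT and rost. In a bulk sample, more cells of a type and more RNA per cell cannot be told apart.

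**Figure D1:**
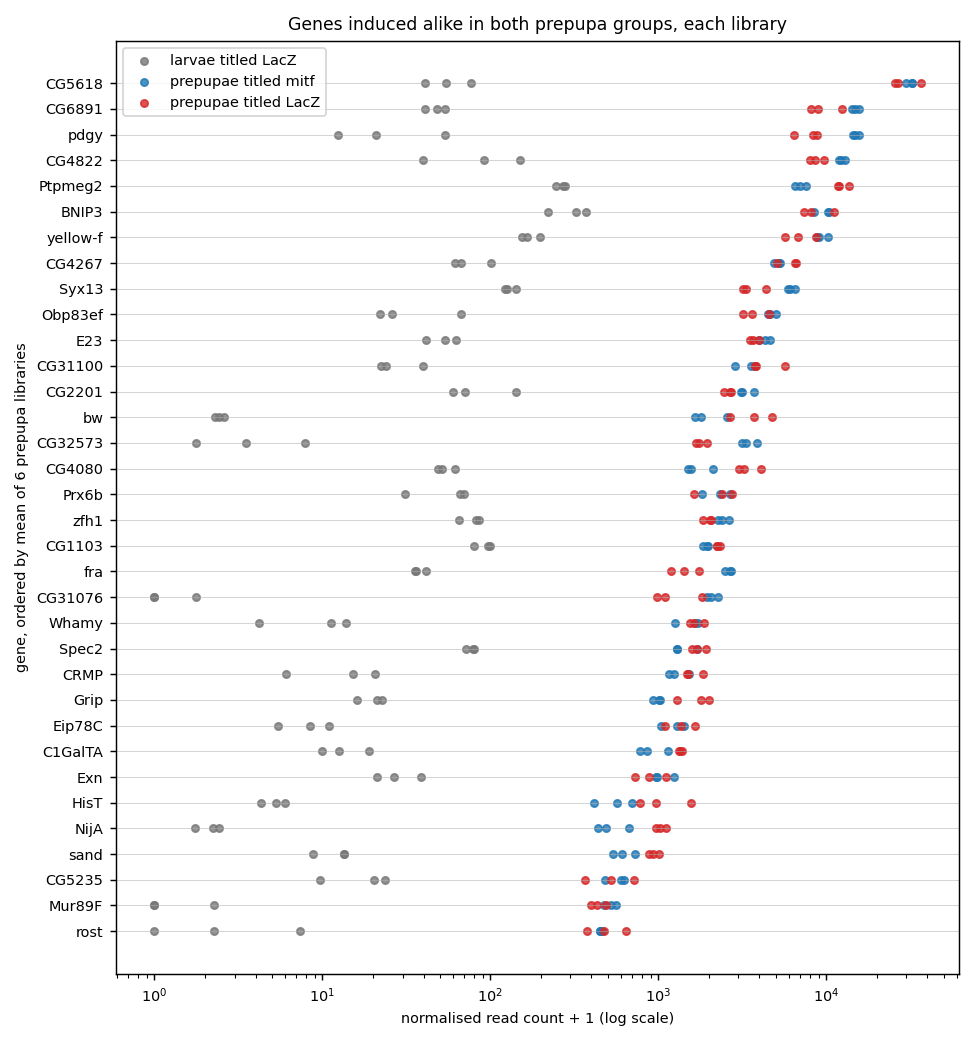
Normalised read count plus 1 (log scale) of 34 of the genes in each of the 9 libraries, 1 point per library, genes ordered by their mean over the 6 prepupa libraries. Grey larval points lie left of every prepupa point in each row, and the blue (titled mitf) and red (titled LacZ) points of a row lie close together, from rost (means 454 and 495) up to CG5618 (means 31513 and 29699).

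Many genes were called different between the stages, with no limit set on the size of the difference. Of 10139 genes tested with limma, 34.8% were higher in the prepupae titled mitf than in the larvae and 31.7% were lower, and for the prepupae titled LacZ the shares were 46.3% higher and 32.2% lower (adjusted p under 0.05, two-sided). A total of 23.6% were higher in both stage comparisons, which share the larval libraries. Between the prepupa groups 41.1% were higher and 31.6% lower in the libraries titled LacZ. The step that the rule asks for was far rarer: 0.848% of tested genes, 86 in all, had every prepupa library at 300 or more and at 16 or more times every larval library. After the symbols were left out 77 such genes remained, of which 45.5% were the 35 described here and 42 had prepupa means more than 2 fold apart. Among 2630 other tested genes with all prepupa libraries at 300 or more, the prepupa means lay within 2 fold for 50.5%. The share with a like level in both prepupa groups was thus near that of other genes of such abundance.

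Of the 42 genes with unequal prepupa means, 26 were higher in the libraries titled mitf and 16 in those titled LacZ. The genes next to each threshold lay close to it. At the factor of 16, CG5235 (16.2), Spec2 (16.3) and CG2201 (17.3) were just inside, and Gs1 (15.6), CG42663 (14.9) and Jupiter (14.6) just outside. At the level of 300, CG5235 (lowest prepupa library 367), rost (373) and Mur89F (396) were inside, and CG34194 (289), Gal (264) and CG46315 (248) outside. At the 2 fold limit between the prepupa groups, CG4080 (1.99), HisT (1.97) and NijA (1.95) were inside, and CG11658 (2.07), Cpr49Ac (2.08) and Mal-A6 (2.11) outside.

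**Figure D2:**
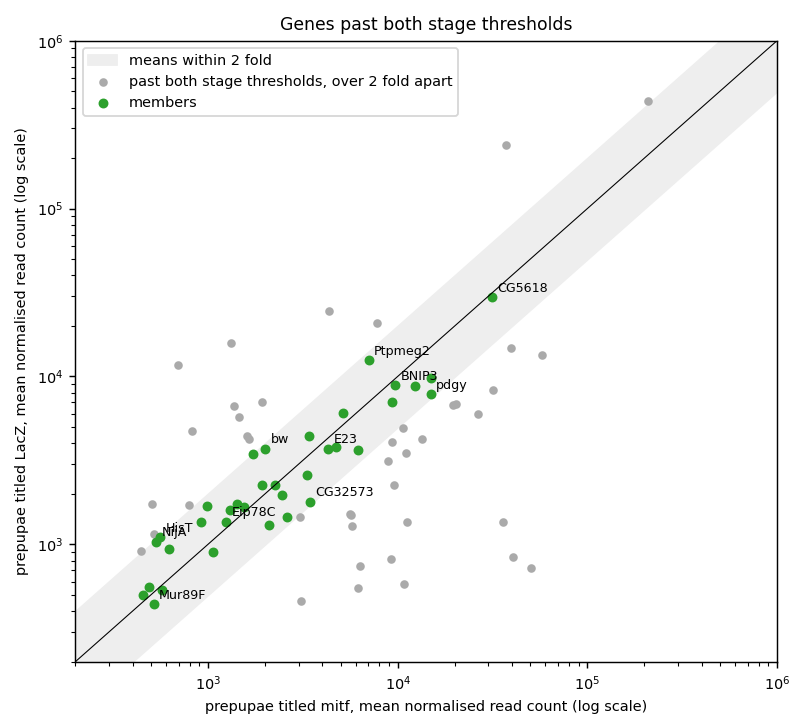
Mean normalised read count in the prepupae titled mitf (horizontal, log scale) and titled LacZ (vertical, log scale) for the 77 genes past both stage thresholds; green points are the 35 genes, grey points the other 42, and the shaded band marks means within 2 fold. The 35 genes fill the band from rost (454 and 495) to CG5618 (31513 and 29699), and the 42 others lie outside it, 26 below and 16 above.

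Genes of the hormone response come first, with a repressor gene beside them. Eip78C (FBgn0004865; chromosome 3L, 21226609 to 21266503, BDGP6) encodes a nuclear receptor related to Eip75B and is switched on by ecdysone. It was read at 4.47, 7.41 and 10.0 in the larvae, at 1034, 1296 and 1413 in the prepupae titled mitf and at 1363, 1645 and 1090.1 in those titled LacZ. The prepupa groups overlapped, and the ratio of their means, titled LacZ over titled mitf, was 1.09. E23 (FBgn0020445; chromosome 2L, 3334875 to 3354829) encodes an ecdysone-inducible ABC transporter that dampens the response to the hormone in the fly. Its values lay at 61.1, 52.8 and 40.3 in the larvae, at 3955, 4319 and 4610.1 in the prepupae titled mitf and at 3980.3, 3493 and 3644 in those titled LacZ. Its mean over the prepupae was 77.8 times the larval mean, the prepupa groups again overlapped, and the group ratio was 0.863. The gene zfh1 encodes a zinc finger and homeodomain repressor and is not on the list of ecdysone response genes used below. It had 76.9 ± 11.5 in the larvae, 2442 ± 191 in the prepupae titled mitf and 1979 ± 112 in those titled LacZ (SD, n = 3). Its prepupa mean was 28.8 times the larval mean, and all 3 libraries titled mitf lay above all 3 titled LacZ, at a ratio of 0.810.

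The list of ecdysone response genes held 34 tested genes besides Eip78C and E23. In the prepupae titled mitf 26 of these rose and 6 fell against the larvae, and in those titled LacZ 22 rose and 1 fell (limma, adjusted p under 0.05), with 17 higher in both. Their median difference from the larvae was 2.57 and 2.16 on the log2 scale, beside 0.08 and 0.50 over all tested genes. Of all tested genes, 34.8% rose and 31.7% fell in the prepupae titled mitf. The shares were 46.3% and 32.2% in those titled LacZ, with 23.6% higher in both. The rises in the prepupae titled mitf include the Eig71E genes, at 0 in all larvae and high mainly in replicate 1. Eig71Eb, for example, was read at 51.0, 1.14 and 6.45 in the libraries titled mitf. The first-tier genes br, Eip75B and Sox14 rose in both groups. Eip74EF, also of the first tier, was called higher only in the prepupae titled mitf. Its mean was 1512 in the larvae, 3313 in the prepupae titled mitf and 1812 in those titled LacZ. For those titled LacZ the difference from the larvae was 0.31 ± 0.23 (SE, log2), with adjusted p = 0.238 by limma. The mean of br, a zinc finger regulator, was 1590.1 in the larvae, 12196 in the prepupae titled mitf and 8909 in those titled LacZ. The mean of Eip75B, a nuclear receptor of the early response, was 740.4 in the larvae, 4845 in the prepupae titled mitf and 4236 in those titled LacZ. Sox14, a transcription factor needed for metamorphosis, went from 337 in the larvae to 5131 in the prepupae titled mitf and 7963 in those titled LacZ. The largest fitted increase of the list in both comparisons was that of Hr4, a nuclear receptor, at 2.05, 0 and 0 in the larvae, at 5398, 5227 and 5579 in the prepupae titled mitf and at 2662, 2887 and 2133 in those titled LacZ. It met the same level and factor but is not among the 35 genes because its symbol starts with Hr and its group means lay more than 2 fold apart. Other list genes went separate ways: ftz-f1, a factor of the later prepupa, fell in both groups, from 165 in the larvae to 27.9 in the prepupae titled mitf and 29.4 in those titled LacZ. EcR, the receptor itself, was read at 979, 753 and 550.3 in the larvae, at 122, 142 and 178 in the prepupae titled mitf and at 3465, 2566 and 3023 in those titled LacZ. It fell in the libraries titled mitf and rose in those titled LacZ, whereas Eip78C and E23 stood at like levels in both.

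Membrane transport genes included 3 ABC transporters and a channel. Besides E23, bw and CG4822 encode ABC transporters of subfamily G, whose half-molecules work in pairs, and the product of bw pairs with that of w to carry pigment precursors in the eye. The gene bw (chromosome 2R, 23527805 to 23538499) was read at 1.44, 1.29 and 1.61 in the larvae, at 2572, 1792 and 1659 in the prepupae titled mitf and at 2682, 4719.8 and 3698 in those titled LacZ. The larval values of bw amount to about 1 or 2 reads per library, and all libraries titled LacZ lay above all titled mitf, at a ratio of 1.84. The gene CG4822 (FBgn0031220; chromosome 2L, 116970 to 121754) was read at 38.8, 90.5 and 149 in the larvae, at 12169.7, 13002 and 11889.7 in the prepupae titled mitf and at 8556, 9705 and 8003 in those titled LacZ. Its prepupa mean was 114 times the larval mean, and all libraries titled mitf lay above all titled LacZ, at a ratio of 0.709. The potassium channel gene sand, of the 2-pore-domain type and known from sleep studies, had means of 10.9 ± 2.71 in the larvae, 622 ± 91.9 in the prepupae titled mitf and 944 ± 65.9 in those titled LacZ. Its libraries titled LacZ all lay above those titled mitf, at a ratio of 1.52.

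Of 10 tested relatives in subfamily G, 7 rose and 2 fell in the prepupae titled mitf and 8 rose and 1 fell in those titled LacZ, with 7 higher in both, beside 34.8%, 46.3% and 23.6% of all tested genes. The family groupings here and below were made after the 35 genes were known, and the relatives named were picked after their values were seen. The pigment partner w had means of 221 in the larvae, 5016 in the prepupae titled mitf and 3144 in those titled LacZ. Its rise was 4.93 ± 0.61 and 4.24 ± 0.61 (SE) on the log2 scale, with adjusted p = 4.81e-05 and 0.000109 by limma. Transgene insertions commonly carry a copy of w as a marker, and values per gene do not separate copy and native gene. CG9664 rose from 128 in the larvae to 4183 in the prepupae titled mitf and 1845 in those titled LacZ, and CG5853 from 1760.2 in the larvae to 4846 in the prepupae titled mitf and 32855 in those titled LacZ. CG31689 went the other way, with 2166 in the larvae, 29.0 in the prepupae titled mitf and 733 in those titled LacZ. The rise of Atet in the prepupae titled mitf, 1.77 ± 0.60 (adjusted p = 0.0252), lost its call without larval replicate 1 (1.08) or 2 (1.74) or without replicate 3 of the libraries titled mitf (1.35). In the wider list of ABC transporters, of 13 tested genes besides bw and E23, 6 rose and 5 fell in the prepupae titled mitf, 9 rose and 3 fell in those titled LacZ, and 4 rose in both.

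Metabolic enzymes included the most abundant gene of all 35. CG5618 (FBgn0036975; chromosome 3L, 20353449 to 20356632) encodes a decarboxylase that uses pyridoxal phosphate, close to the cysteine sulfinate and glutamate decarboxylases. Single libraries read it at 39.6, 53.6 and 76.2 in the larvae, at 32508, 29650.1 and 32379.9 in the prepupae titled mitf and at 25558, 36661 and 26879 in those titled LacZ. The prepupa groups overlapped around 31513 ± 1614 and 29699 ± 6065 (SD, n = 3), a ratio of 0.942 and 542 times the larval mean. Per kilobase of exon it stood at 13489 in the prepupae, the highest of the 35, ahead of CG6891 (7919) and yellow-f (5696), and the lowest was Mur89F (65.1). CG5618 shares part of its span with eRF1, a translation termination factor on the same strand, whose mean was 4934 in the larvae, 3600 in the prepupae titled mitf and 1068 in those titled LacZ. Beside 23.6% of all tested genes, 4 of 7 tested relatives rose in both comparisons, and none fell in either. One of them, b, encodes the aspartate decarboxylase that makes beta-alanine, and had means of 0.427 in the larvae, 14.7 in the prepupae titled mitf and 419 in those titled LacZ.

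The gene pdgy (FBgn0027601; chromosome X, 14933670 to 14953532) encodes an acyl-CoA synthetase, an enzyme that activates fatty acids, and is known in the fly for its induction by fasting. Library by library it stood at 19.7, 52.4 and 11.5 in the larvae, at 14387, 15555 and 14836 in the prepupae titled mitf and at 8761, 6434 and 8349 in those titled LacZ. The libraries titled mitf all lay above those titled LacZ, with a ratio of 0.526, and the prepupa mean was 409 times the larval mean. Of 7 tested acyl-CoA synthetases, 4 fell in both comparisons, and hll was the only one to rise in both. Over all tested genes 31.7% fell in the prepupae titled mitf and 32.2% in those titled LacZ. Acsl, which serves long-chain fatty acids, went from 12359.6 in the larvae to 375 in the prepupae titled mitf and 1704 in those titled LacZ, and bgm, for very long chains, from 10678 in the larvae to 27.6 in the prepupae titled mitf and 1435 in those titled LacZ. The mean of hll was 7.99 in the larvae, 1185 in the prepupae titled mitf and 548 in those titled LacZ. With pdgy and hll, the family thus held 2 genes that were low in the larvae and high in the prepupae beside 4 that were high in the larvae.

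Prx6b encodes a peroxiredoxin, an enzyme that removes hydrogen peroxide. Its means were 54.4 ± 21.3 in the larvae, 2261 ± 421 in the prepupae titled mitf and 2249.8 ± 560.4 in those titled LacZ, and the ratio of 0.995 was the closest to 1 among the 35. Of 6 tested relatives, 4 fell in both comparisons, beside falls in 31.7% (titled mitf) and 32.2% (titled LacZ) of all tested genes. Only Prx6c rose in both, from 51.2 in the larvae to 1328 in the prepupae titled mitf and 15737 in those titled LacZ. The abundant larval form Prx2 fell, with 21155 in the larvae, 2095 in the prepupae titled mitf and 749.9 in those titled LacZ. CRMP (FBgn0023023), the single fly gene for dihydropyrimidinase and the collapsin response mediator protein, serves pyrimidine breakdown and was read at 19.6, 5.04 and 14.2 in the larvae, at 1158, 1529.7 and 1243 in the prepupae titled mitf and at 1491, 1834 and 1471 in those titled LacZ. Its prepupa groups overlapped, at a ratio of 1.22 and 112 times the larval mean. The enzymes before and after it in that pathway moved apart. The dehydrogenase su(r) fell from 6190.3 in the larvae to 12.2 in the prepupae titled mitf and 76.2 in those titled LacZ, and pyd3, the last enzyme, rose from 416 in the larvae to 1389.8 in the prepupae titled mitf and 1707 in those titled LacZ.

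The gene yellow-f (FBgn0041710; chromosome 3R, 12991449 to 12993201) encodes an enzyme of the melanin pathway that converts dopachrome. It was read at 197, 165 and 153 in the larvae, at 9079, 10194 and 8801 in the prepupae titled mitf and at 5695, 8630.4 and 6776 in those titled LacZ. Every library titled mitf exceeded every library titled LacZ, by a narrow margin in 1 pair, with a ratio of 0.752. Among its 6 tested relatives 1 rose and 3 fell in the prepupae titled mitf, and 3 rose and none fell in those titled LacZ. Without replicate 1 of the libraries titled mitf the first count of rises was 3. The closest relative by name and function, yellow-f2, was read at 1287, 1229 and 1379 in the larvae, at 6.40, 3.83 and 4.87 in the prepupae titled mitf and at 7941, 8288 and 7548 in those titled LacZ. It dropped in the prepupae titled mitf and rose in those titled LacZ, unlike yellow-f. C1GalTA encodes the galactosyltransferase that builds the core 1 sugar of mucin-type O-glycans. Its means were 12.8 ± 4.58 in the larvae, 923 ± 190.1 in the prepupae titled mitf and 1349 ± 25.7 in those titled LacZ, 88.6 times the larval mean over the prepupae. Of 10 tested Pgant genes, which add the first sugar of these glycans, 6 rose and 1 fell in the prepupae titled mitf. In those titled LacZ 4 rose and 4 fell, and 3 rose in both groups, beside 23.6% of all tested genes. Pgant4 rose from 0.259 in the larvae to 118 in the prepupae titled mitf and 61.8 in those titled LacZ.

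**Figure D3:**
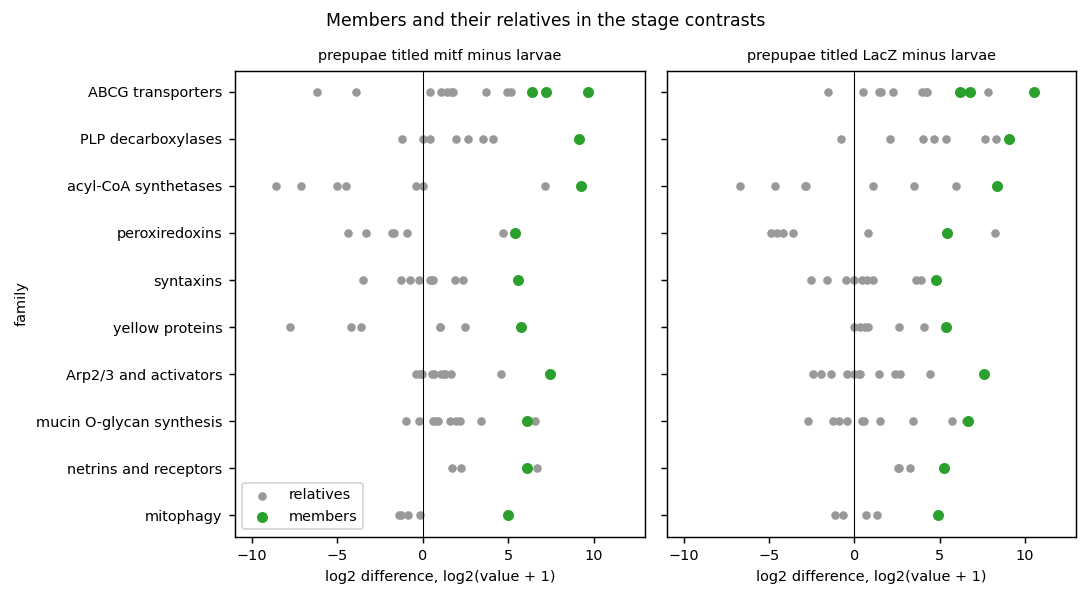
Difference from the larvae on the log2(value + 1) scale for 10 families that hold some of the 35 genes, prepupae titled mitf on the left and titled LacZ on the right, 1 point per gene, with the described genes in green and tested relatives in grey. A green point lies furthest right in each family except mucin O-glycan synthesis and netrins in the left panel and peroxiredoxins in the right panel, and the relatives of pdgy and Prx6b lie mostly left of 0. The green genes were chosen for a large rise in both groups, so their place on the right was largely set by the rule.

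Genes of organelle turnover and membrane traffic were represented by BNIP3 and Syx13. BNIP3 (FBgn0037007; chromosome 3L, 20514598 to 20519393) encodes a mitochondrial outer membrane receptor that brings mitochondria to autophagosomes. Its values lay at 370.3, 321 and 221 in the larvae, at 8488, 10173 and 10422 in the prepupae titled mitf and at 11175, 7346 and 8057 in those titled LacZ. Per kilobase of exon its larval level, 130.4, was the highest of the 35, its prepupa groups overlapped, and the ratio of 0.914 went with a prepupa mean 30.5 times the larval mean. The other tested genes of mitophagy and mitochondrial fission and fusion did not rise with it in both groups. Pink1, the kinase of the other mitophagy route, had 931 in the larvae, 819.5 in the prepupae titled mitf and 2318 in those titled LacZ, and rose in those titled LacZ. The ubiquitin ligase gene park fell in both, from 186 in the larvae to 101 in the prepupae titled mitf and 84.5 in those titled LacZ. Syx13 (FBgn0036341; chromosome 3L, 13044434 to 13046894) encodes an endosomal SNARE, a protein of membrane fusion. Single libraries read it at 141, 121 and 125 in the larvae, at 6047, 6502 and 5890.3 in the prepupae titled mitf and at 4403, 3213 and 3327 in those titled LacZ. The libraries titled mitf lay above those titled LacZ without overlap, at a ratio of 0.593. Among 9 tested syntaxins 5 rose and 4 fell in the prepupae titled mitf and 5 rose and 3 fell in those titled LacZ. In both groups 3 rose, beside 23.6% of all tested genes. The first count of rises was 3 without larval replicate 3 or without replicate 1 of the libraries titled mitf. Syx7, also an endosomal form, rose from 383 in the larvae to 1986 in the prepupae titled mitf and 5857 in those titled LacZ. Syx17 serves the fusion of autophagosomes with lysosomes. It rose from 116 in the larvae to 420.1 in the prepupae titled mitf and 255 in those titled LacZ.

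A further group acts on the actin skeleton and its switches. Whamy (FBgn0037750; chromosome 3R, 9771795 to 9774419) belongs to the WASP family, which activates the Arp2/3 complex, the nucleator of branched actin. Library by library it stood at 12.8, 10.2 and 3.19 in the larvae, at 1653, 1259 and 1710.5 in the prepupae titled mitf and at 1553, 1857 and 1623 in those titled LacZ. The prepupa groups overlapped and their ratio was 1.09. Of 11 tested Arp2/3 subunits and activators 7 rose and 1 fell in the prepupae titled mitf, and 5 rose and 3 fell in those titled LacZ. In both groups 5 rose, beside 23.6% of all tested genes. Arpc4, a subunit, rose from 175 in the larvae to 362 in the prepupae titled mitf and 3782 in those titled LacZ. Spec2, a small effector of Cdc42, was read at 78.9, 71.0 and 77.7 in the larvae, at 1286, 1297 and 1687 in the prepupae titled mitf and at 1914, 1697 and 1593 in those titled LacZ. It had the smallest fold of the 26 genes with one. Exn, an exchange factor for small GTPases, had 27.8 ± 9.14 in the larvae, 1063 ± 157 in the prepupae titled mitf and 905 ± 193 in those titled LacZ, with overlapping prepupa groups.

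Signalling and scaffold genes include Ptpmeg2 (FBgn0028341; chromosome X, 9626294 to 9659145), a cytoplasmic tyrosine phosphatase. It was read at 276, 270.4 and 245 in the larvae, at 7008, 7552 and 6516 in the prepupae titled mitf and at 11981, 13701 and 11785 in those titled LacZ. The libraries titled LacZ stood above those titled mitf, at a ratio of 1.78, and the prepupa mean was 37.0 times the larval mean. Of 4 tested relatives only Ptpmeg rose in both comparisons, from 458 in the larvae to 2038 in the prepupae titled mitf and 2917 in those titled LacZ. Grip, a PDZ domain scaffold known from muscle guidance, had 19.0 ± 3.48 in the larvae, 983 ± 49.2 in the prepupae titled mitf and 1699.6 ± 376 in those titled LacZ, and its libraries titled LacZ stood above those titled mitf at a ratio of 1.73.

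Cell surface and adhesion genes were fra, rost, NijA and Mur89F. The netrin receptor gene fra had 36.7 ± 3.21 in the larvae, 2623 ± 108 in the prepupae titled mitf and 1455 ± 281 in those titled LacZ, 55.6 times the larval mean over the prepupae, and its libraries titled mitf stood above those titled LacZ at a ratio of 0.555. All 3 tested partners rose in both comparisons, beside 23.6% of all tested genes. The ligand NetB rose from 7.56 in the larvae to 847 in the prepupae titled mitf and 77.8 in those titled LacZ, and NetA from 23.4 in the larvae to 115 in the prepupae titled mitf and 139.6 in those titled LacZ. The other netrin receptor, unc-5, rose from 14.7 in the larvae to 50.0 in the prepupae titled mitf and 98.7 in those titled LacZ. The membrane protein gene rost, known from myoblast fusion, was read at 0, 1.26 and 6.31 in the larvae, at 461, 451 and 449 in the prepupae titled mitf and at 373, 642 and 471 in those titled LacZ. Its prepupa groups overlapped, at a ratio of 1.09. NijA (FBgn0036101; chromosome 3L, 10694360 to 10696877) encodes a ninjurin, a small membrane protein of adhesion and of the response to stress. Its values lay at 1.43, 1.22 and 0.753 in the larvae, at 438, 485 and 672 in the prepupae titled mitf and at 1116, 1029 and 969 in those titled LacZ. The larval values stand for about 1 read, and the libraries titled LacZ stood above those titled mitf, at a ratio of 1.95. NijC, the tested relative, was at 2.69 in the larvae, 4.12 in the prepupae titled mitf and 13.3 in those titled LacZ, with a call only in the comparison of those titled LacZ. Mur89F, a mucin-related gene, was read at 0, 1.25 and 0 in the larvae, at 471, 556 and 524 in the prepupae titled mitf and at 487, 396 and 430.5 in those titled LacZ, with overlapping prepupa groups and a ratio of 0.847. It shares part of its span with CG5292, on the opposite strand, whose means were 146, 126 and 2967 in the same order of groups.

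The secreted protein gene Obp83ef (FBgn0046876; chromosome 3R, 6109642 to 6111034) belongs to the odorant-binding family, small carriers of hydrophobic molecules. Single libraries read it at 24.9, 21.1 and 66.0 in the larvae, at 4635, 5035 and 4488 in the prepupae titled mitf and at 3210.2, 4554 and 3598 in those titled LacZ. The prepupa groups overlapped, at a ratio of 0.802 and 114 times the larval mean. Obp83cd, which overlaps it on the opposite strand, moved the other way, from 559.6 in the larvae to 1.42 in the prepupae titled mitf and 33.9 in those titled LacZ, and its fall passed the test in both comparisons. Of 26 tested carriers of the Obp, Npc2 and related families 8 rose and 6 fell in the prepupae titled mitf, and 16 rose and 8 fell in those titled LacZ. In both groups 5 rose, near the share of 23.6% of all tested genes. When only genes at 10 or more in 3 libraries were kept, 10 rose in those titled LacZ.

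Of the remaining genes, 9 have no name beyond a CG number and no role is given for them here. CG6891 (FBgn0030955; chromosome X, 18775228 to 18781345) was read at 47.3, 40.0 and 52.8 in the larvae, at 15759.8, 14173 and 14901 in the prepupae titled mitf and at 8940.4, 12457 and 8127 in those titled LacZ. All libraries titled mitf exceeded all those titled LacZ, and the prepupa mean was 265 times the larval mean. CG31076 (FBgn0051076; chromosome 3R, 26989035 to 26989852), listed at 0 in a pair of larval libraries, was read at 0, 0 and 0.774 in the larvae, at 1959.8, 2052 and 2275 in the prepupae titled mitf and at 975, 1823 and 1100 in those titled LacZ. It had the largest ratio of the lowest prepupa to the highest larval library, 1259, and its libraries titled mitf stood above those titled LacZ. CG32573 (FBgn0052573; chromosome X, 16651376 to 16653275) was read at 6.92, 2.49 and 0.777 in the larvae, at 3319, 3886 and 3149 in the prepupae titled mitf and at 1742, 1961 and 1674 in those titled LacZ. At 0.519 it had the lowest ratio of titled LacZ to titled mitf among the 35. CG31100 was read at 38.6, 21.3 and 22.9 in the larvae, at 3775, 3562 and 2863 in the prepupae titled mitf and at 3816, 5652 and 3777 in those titled LacZ. The lowest library titled LacZ lay just above the highest titled mitf. CG4267 was read at 99.6, 60.4 and 66.2 in the larvae, at 4915, 5231 and 5331 in the prepupae titled mitf and at 6559, 5061 and 6523 in those titled LacZ, with overlap and a ratio of 1.17. CG4080 was read at 50.4, 60.9 and 47.6 in the larvae, at 1502, 1572 and 2126 in the prepupae titled mitf and at 4109.8, 3024 and 3221 in those titled LacZ. It had the highest ratio between the prepupa groups, 1.99. CG2201 was read at 59.1, 69.9 and 142 in the larvae, at 3166, 3725 and 3123 in the prepupae titled mitf and at 2711, 2656 and 2444 in those titled LacZ, and its libraries titled mitf stood above those titled LacZ. CG5235 was read at 19.4, 8.74 and 22.6 in the larvae, at 602, 483 and 627 in the prepupae titled mitf and at 367, 716 and 524 in those titled LacZ. Its prepupa groups overlapped and it was the nearest to the factor of 16. CG1103 had 90.8 ± 10.7 in the larvae, 1926 ± 68.7 in the prepupae titled mitf and 2254 ± 59.1 in those titled LacZ, and its libraries titled LacZ stood above those titled mitf. HisT, a gene with a symbol and no role given here, was read at 3.32, 4.32 and 4.97 in the larvae, at 569, 414 and 696 in the prepupae titled mitf and at 773, 1565 and 970.2 in those titled LacZ, and its libraries titled LacZ stood above those titled mitf at a ratio of 1.97.

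The rule allows a difference of up to 2 fold between the prepupa groups, and the 35 genes lay on both sides of equality. In 10 genes every library titled LacZ lay above every library titled mitf, in 10 the reverse held and in 15 the groups overlapped. Over all tested genes the shares were 42.1%, 34.0% and, without overlap in either direction, 76.1%. The rule used this contrast, so nothing is read from the counts. Group means lay within 1.25 fold for 17 genes and within 1.5 fold for 22. The mean was higher in the libraries titled LacZ for 17 genes and in those titled mitf for 18, and the median difference was −0.02 on the log2 scale, beside 0.22 over all tested genes. That balance follows the scaling: with values divided by library totals 28 were higher in the libraries titled LacZ and 7 in those titled mitf, and with trimmed means 14 and 21. Those scalings moved the median over all genes by 0.41 and −0.17 in this contrast. The ratios and group orders given above for single genes are those of the deposited scaling, and for some genes the order changes under the others.

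**Figure D4:**
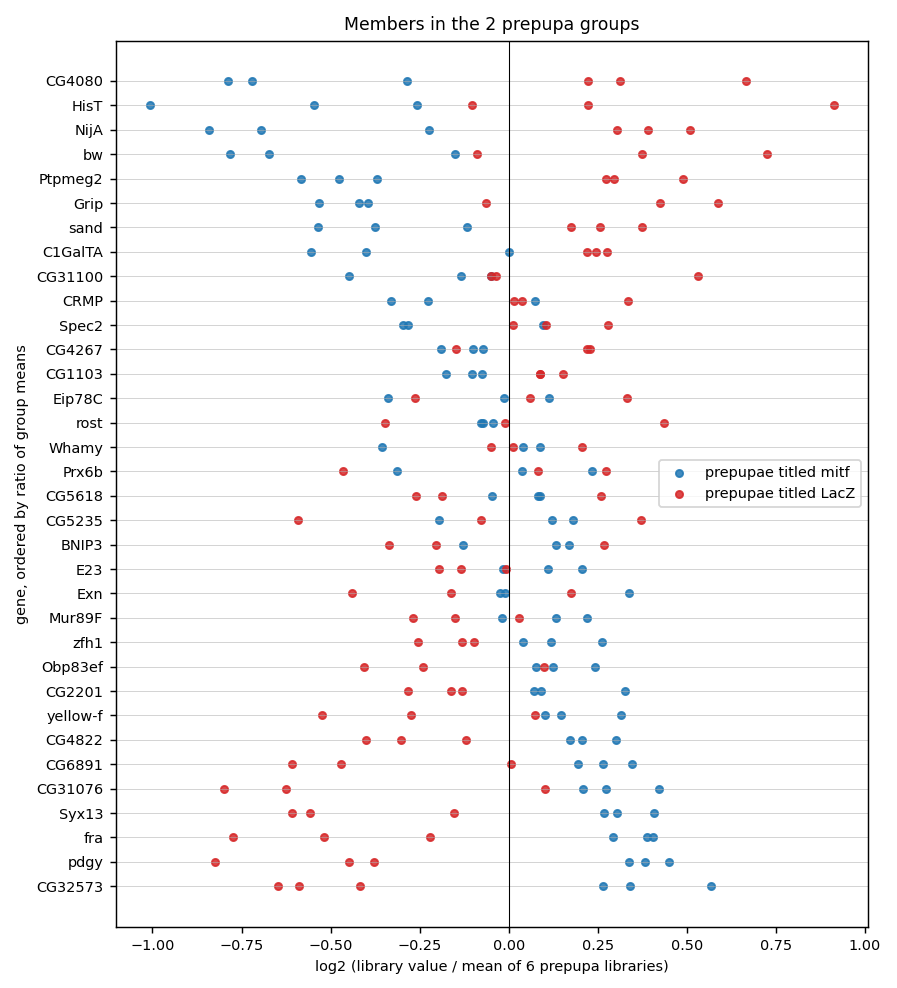
Value of each of the 6 prepupa libraries over the mean of all 6, on a log2 scale, for 34 of the genes, ordered by the ratio of the group means; blue points are prepupae titled mitf and red points those titled LacZ. At the top red points lie to the right (CG4080, ratio 1.99), at the bottom to the left (CG32573, ratio 0.519), and in the middle the colours mix.

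Replicates of the prepupae titled LacZ did not scatter evenly. The second library held the highest of the 3 values in 23 of the 35 genes (65.7%), the first in 12 and the third in 0, whereas among 3894 other tested genes with a group mean of 300 or more the second was highest in 37.3% and the third in 26.3%. In those other genes the second library was also the lowest most often, in 47.6%, beside 22.9% of the 35 genes. It thus stood apart from the other libraries of its group across many genes. The median deviation of the 35 genes from their group mean was 0.15 (log2) in the second library and −0.10 in the third. Among the 42 strongly induced genes with unequal prepupa means the second library was highest in 21 and the third in 4. The same library had the highest Mitf, and whether the level of Mitf plays a part in this was not tested. In the prepupae titled mitf the third library was highest in 17 genes (48.6%), beside 41.1% of 3603 other genes. The median coefficient of variation of the 35 genes was 10.1% in the prepupae titled mitf and 18.0% in those titled LacZ, beside 6.94% and 12.6% in the other genes of such level, and 32.7% in the larvae, where values were low.

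**Figure D5:**
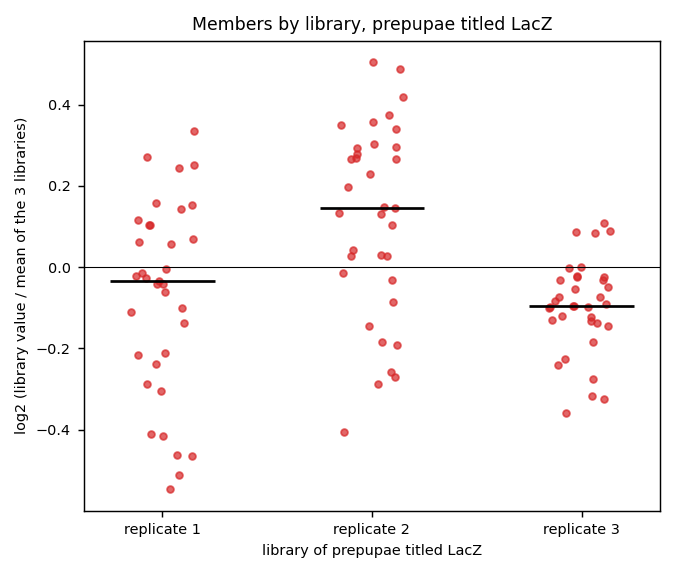
Value over the mean of the 3 libraries (log2) for each of the 35 genes in the prepupae titled LacZ, by library, with 1 point per gene and a bar at the median. The medians are −0.03 in replicate 1, 0.15 in replicate 2 and −0.10 in replicate 3.

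Position and gene structure were not used by the rule. All 35 genes are protein coding in the Ensembl annotation of BDGP6. They lie on 2L (6), 2R (5), 3L (8), 3R (11) and X (5), no pair lies within 10 kb, and the nearest are C1GalTA and rost, 34.7 kb apart, and CRMP and Spec2, 37.5 kb apart. The median span from gene start to end was 6118 bp, beside 2696 bp in the other tested protein-coding genes and 3144 bp in the 42 strongly induced genes with unequal prepupa means. A span over 10 kb was found in 12 (34.3%) beside 17.1% of the other protein-coding genes. Mur89F at 49136 bp, Eip78C at 39895 bp and fra at 35132 bp were the longest. The summed exon length differed less, with a median of 2378 bp beside 2036 bp.

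Genes next to the 35 were examined because the rule did not choose them. The nearest tested gene on each side gave 70 neighbours. In the prepupae titled mitf 30 rose (42.9%, beside 34.8% of all tested genes) and 23 fell, and in those titled LacZ 41 rose (58.6%, beside 46.3%) and 23 fell. A rise in both was found in 26 (37.1%, beside 23.6%). Of 64 neighbours within 10 kb, 22 (34.4%) rose in both. CG5966, next to Grip, had means of 42.6 in the larvae, 20222 in the prepupae titled mitf and 6885 in those titled LacZ, a rise of 8.91 ± 0.34 and 7.29 ± 0.34 (SE, log2). CG3764, next to Exn, had 110.1 in the larvae, 1603 in the prepupae titled mitf and 16648 in those titled LacZ. ClC-c, a chloride channel gene next to CG5235, had 1249 in the larvae, 6946 in the prepupae titled mitf and 7712 in those titled LacZ. These 3 rose in both comparisons and were picked after their values were seen. The span of 14 of the 35 genes overlaps another measured gene, and the files do not state whether reads were counted by strand. CG6891 overlaps CG18259 (359, 406 and 3002) and CG32573 overlaps Nemp (132, 404 and 1079), each on the opposite strand, with means in the order larvae, titled mitf and titled LacZ.

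Markers of fat body and of other tissues moved between the groups as well. The 10 fat body markers summed to 7866940 to 12883100 in the larvae, 10352600 to 10682300 in the prepupae titled mitf and 1130440 to 1565540 in those titled LacZ. Single fat body markers went separate ways: 4 rose and 5 fell in the prepupae titled mitf, and 1 rose and 8 fell in those titled LacZ. The mean of Fbp1 was 7130 in the larvae, 6366620 in the prepupae titled mitf and 795011 in those titled LacZ. Lsp1beta, which fell in both, had means of 3722040, 258309 and 33143 in that order. The 13 gut markers measured of 18 summed to 336 to 587, 2961 to 3388 and 7554 to 10292 in that order, the 11 hemocyte markers of 12 to 4647 to 6596, 8604 to 10070 and 7166 to 8224, and the 14 tubule markers of 16 to 9122 to 11434, 7039 to 8214 and 45839 to 49024. The 10 epidermis and disc markers of 11 summed to 4435 to 7924, 174374 to 243072 and 436683 to 466913, nearly all of it Cpr49Ac, and the 6 neuron and ring gland markers of 11 to 2127 to 3389, 19920 to 21027 and 2001 to 3202, nearly all of it Syt1. Of the gut markers 3 rose and 4 fell in the prepupae titled mitf, where Mal-A6 made up nearly all of the sum, and 10 rose and 1 fell in those titled LacZ. Of the tubule markers 2 rose and 2 fell in the prepupae titled mitf, and 7 rose and 2 fell in those titled LacZ. Hemocyte markers were mixed, with 4 up and 2 down in the prepupae titled mitf and 6 up and 3 down in those titled LacZ. For the epidermis and disc list the counts were 3 up and 3 down, then 5 up and 2 down. The neuron and ring gland list had 3 up and 0 down in each. The 13 muscle markers of 14 summed to 3157 to 3645, 877 to 1130 and 6013 to 7363. Of these 1 rose and 9 fell in the prepupae titled mitf, and 2 rose and 7 fell in those titled LacZ, where sls made up most of the sum with a mean of 5455 against 96.0 in the larvae. The 6 tracheal markers summed to 102 to 138, 245 to 388 and 152 to 414, and 2 of them rose in the prepupae titled mitf and 1 in those titled LacZ. The 4 testis and gonad markers measured of 10 summed to 96.3 to 105, 335 to 348 and 154 to 178, and 3 of them rose in the prepupae titled mitf and 2 in those titled LacZ. The sums of the 2 salivary gland markers measured of 11 lay at 1979 to 2296 in the larvae and 659 to 1273 in the prepupae. No marker measured was at 0 in all 9 libraries. The epidermis and disc sum met both thresholds set on the stages for the 35 genes, its lowest prepupa value being 22.0 times its highest larval one, and missed only the 2 fold limit between the prepupa groups, at a ratio of 2.13. No other list had sums that met both stage thresholds, and the part of other tissues in the levels of the 35 genes was not tested.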

How the data were processed

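Poly(A) RNA was sequenced from 9 fat body libraries, and the files hold 1 value per gene and library. The deposited values are a signal, normalised read counts that the authors scaled between libraries; the submitters' processing notes name bcl2fastq, Salmon 1.5.2, DESeq2 and BDGP6, without role or order. They are not whole counts, which the design had allowed for. The unit that best makes low values whole multiples (up to 10, tolerance 0.05) gave 18500000 to 29000000 reads per library, but only 69.5% to 76.2% of low values came out whole, so no count test was run.

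Groups follow the sample titles. Genes at 1 or more in at least 3 libraries (10139 of 10242) entered 1 fit of limma 3.58.1 in R 4.3.3 on log2(value + 1), with a mean-variance trend, all 9 libraries and 1 shared spread. P-values are two-sided, adjusted by Benjamini and Hochberg over all tested genes, and called under 0.05. Log2 differences are on the log2(value + 1) scale and understate changes of low genes. The fit was tested on simulated data. The 35 genes, the rule and the gene lists were chosen with earlier results of these data known, and the 15 families after the 35 genes were known. Every one of the 35 genes could be named, with each library's value for those with the largest factors, the highest means, a place next to a threshold or a place in a list. Relatives and neighbours were named after their values were seen. Symbols and positions come from an Ensembl 115 annotation of BDGP6, which matched 10189 identifiers. Alternatives were other pseudocounts, filters, scalings and thresholds, a replicate block, and fits without single libraries. For 1 of the 35 genes and its relatives, values are not reported here.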

Additional observations from a re-analysis of the deposited data

Results flagged for a closer look

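Genes related to those described showed stage changes of opposite sign in the prepupa groups, and the difference itself, titled LacZ minus titled mitf, passed the test (limma on all tested genes, n = 3 per group, with Benjamini-Hochberg adjusted p). EcR differed by 4.35 ± 0.22 (SE) on the log2 scale, from −2.34 against the larvae in the libraries titled mitf to 2.01 in those titled LacZ (adjusted p = 6.13e-08). Cyp18a1, which breaks down ecdysone, differed by 6.89 ± 0.41, from −4.43 to 2.47 (adjusted p = 1.98e-07). The dopachrome enzyme gene yellow-f2 differed by 10.38 ± 0.15, from −7.77 to 2.61 (adjusted p = 6.65e-11). Obp99b, an abundant odorant-binding protein gene of the fat body, differed by −2.43 ± 0.28, from 1.23 to −1.21 (adjusted p = 2.86e-05). In each of the 4 genes all libraries of a group moved the same way. The groups of 3 libraries are too small for a test of single outlying libraries.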

How the results depend on the processing

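The number of genes that met the rule was 35. It was 69 with a factor of 8, 21 with a factor of 32 and 22 with prepupa means within 1.5 fold, which follow from the looser or tighter thresholds. It was 48 and 24 with a lowest prepupa library of 100 and 1000, and 32 to 39 when 1 library was left out. Scaling by library totals gave 42 genes, 27 of them shared, without CG4080, Grip, HisT, NijA, Ptpmeg2, Spec2, bw and sand. Scaling by trimmed means gave 33, 29 of them shared, without CG2201, CG32573, CG5235, Spec2, fra and pdgy. Counts of called genes moved by less than 1.5 times under every alternative run: 6376 to 6958 around 6737 for prepupae titled mitf against larvae, 7174 to 8002 around 7959 for those titled LacZ against larvae, and 6722 to 7414 around 7366 between the prepupa groups. With library totals the share of higher calls was 69.1% in place of 59.0% for titled LacZ against larvae (5512 higher and 2469 lower) and 67.9% in place of 56.6% between the prepupa groups (4950 higher and 2335 lower). Replicate numbers did not pair the libraries, since correlations of same-numbered deviations ran from −0.07 to 0.09; a replicate block gave 6662, 7907 and 7300 calls. No named gene reversed a called difference from the larvae. Between the prepupa groups the order of the means did change for some of the 35 genes. The mean was higher in the libraries titled LacZ for 17 genes as deposited, 28 with library totals and 14 with trimmed means. Reads per library limit the larval values of the 9 genes without a fold, which stand for few reads.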
